A study of Mus musculus with 24 samples.

Results

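Ribosome biogenesis and nucleolar factors were examined here as 1 group of genes in the mouse left ventricle: the proteins that transcribe, modify, cut and assemble ribosomal RNA in the nucleolus. The members came from a list of 39 genes, matched by symbol to the rows of the deposited read count table. Of these, 38 had a row and are described below, out of 24015 genes in the table; 1 listed gene was not analysed here. All 38 passed the filter on low counts, which left 13816 genes for testing. The lowest count of any member in any library was 59 reads.

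RNA was sequenced from left ventricles taken 2, 4, 7 and 21 days after TAC (transverse aortic constriction, an operation that narrows the aorta and so loads the left ventricle with pressure) or after a sham operation. Each operation and day had 3 libraries, 24 in all, and each sham group was the control of the TAC group of the same day. No transgene, knockout or drug is named for any group, and strain, age and sex are not stated. The ventricle was taken whole, so a value is an average over all of its cell types, and fewer cells of a type and less RNA per cell cannot be told apart. Nothing states that the 3 libraries of a group came from separate animals. The p-values rest on the spread between libraries within groups, pooled over all 24 libraries, and that spread may be technical.

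Ribosomes are built in the nucleolus. RNA polymerase I copies the ribosomal DNA into a long precursor RNA. Small nucleolar ribonucleoproteins (snoRNPs) of the box C/D type guide ribose methylation of it, and those of the box H/ACA type guide the conversion of uridine to pseudouridine. Separate sets of assembly factors then cut and fold the precursor into the small and the large subunit. Cardiac growth under load needs more protein synthesis, and ribosome production is one of the ways a heart muscle cell raises its capacity for it. The transcription factor Myc, which binds the E-box CACGTG, is a well known activator of many of these genes.

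The promoters that hold the E-box are shown first, because members of this group are textbook targets of Myc. Myc RNA itself was higher after TAC at days 2 and 4 (values and their limits below). The part of Myc in the values of the members was not tested. RefSeq promoter windows of the build GRCm38.p6, from 250 bases before to 50 bases after a gene's start, were found for 33 of the 38 members. Those of Fbl, Npm1, Rrs1, Rrp12 and Bop1 were not analysed here. Some genes have more than 1 start, so the 33 members had 36 windows. The letters CACGTG, the same on both strands, occurred in 7 of the 36 windows, or 19.4%, against 7.15% of all 32851 promoter windows in the table. The 7 stretches of 30 bases around it follow, 5′ to 3′ on the gene's strand, with the E-box in capitals.
Pes1: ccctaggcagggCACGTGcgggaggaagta
Tsr1: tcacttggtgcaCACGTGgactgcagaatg
Wdr43: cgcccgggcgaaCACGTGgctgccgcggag
Mybbp1a: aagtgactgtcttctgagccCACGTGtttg
Ltv1: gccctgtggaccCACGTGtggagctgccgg
Utp20: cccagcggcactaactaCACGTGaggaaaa
Nop2: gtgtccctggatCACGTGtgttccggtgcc

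These stretches lie at chr11:3963965-3963994 (Pes1, plus strand), chr11:74898092-74898121 (Tsr1, plus), chr17:71616220-71616249 (Wdr43, plus), chr11:72441347-72441376 (Mybbp1a, plus), chr10:13193092-13193121 (Ltv1, minus), chr10:88826765-88826794 (Utp20, minus) and chr6:125131811-125131840 (Nop2, plus). In 6 of the 7 genes the E-box lay just downstream of the annotated start. Its first base was base 3 of the transcribed sequence in Pes1, 18 in Wdr43, 25 in Tsr1, 29 in Ltv1, 38 in Utp20 and 41 in Mybbp1a. In Nop2 it began 60 bases before the start.

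A second motif, CCGGAAG, is the core recognised by ETS transcription factors. It was searched on both strands and occurred in 11 of the 36 windows, or 30.6%, against 8.86% of all windows. The 2 stretches below belong to Polr1e, which was higher after TAC at day 2, and to Nhp2, which had the largest mean fold change of the box H/ACA proteins. Capitals mark the motif, which in Polr1e lies on the opposite strand and therefore reads as its reverse complement.
Polr1e: cctagaatgtcaCTTCCGGtttttgagtcc
Nhp2: ccacttgaaaacCCGGAAGtgatgtcggag

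They lie at chr4:45018622-45018651 (Polr1e, plus strand, motif from base 26 of the transcribed sequence) and chr11:51619738-51619767 (Nhp2, plus strand, motif from 23 bases before the start). The other 9 genes with the ETS letters were Gar1, Heatr1, Ltv1, Nip7, Noc3l, Nolc1, Nop2, Polr1c and Tsr1, so that Ltv1, Nop2 and Tsr1 held both motifs, at places that did not overlap. The letters GCGCATGC, a part of the NRF1 motif, and AAGATGGC, the YY1 core, each occurred in 1 of the 36 windows, that of Ftsj3, or 2.78%, against 2.71% and 2.75% of all windows. A match in letters is a description of the window and shows no binding. For every motif the share of all windows includes genes not tested here. The shares among the 13816 genes tested were not worked out.

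The libraries held 10689684 to 17563210 counted reads. Of 12 cardiomyocyte markers, all were measured, and their summed level in the sham libraries of day 2 was 102718 to 110594 CPM (counted reads per 1000000, scaled by the TMM method), so the tissue carried the defining markers of heart muscle. Myl7, an atrial gene, was above 30 CPM in 4 libraries: replicate 1 of TAC day 7, replicates 2 and 3 of sham day 2 and replicate 2 of sham day 21. Medians over the members and, outside day 2, counts of members past the test are given below with and without these libraries. At day 2 only replicate 1 of sham remains without them, so no count is given for that day. All 5 hypertrophy markers were higher after TAC at days 2, 4 and 7 and 4 of the 5 at day 21.

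Levels of the members differed widely per length. On the authors' RPKM scale (reads per kilobase of gene and per 1000000 reads), the mean of the 12 sham libraries was 126 for Npm1, which encodes the abundant nucleolar chaperone nucleophosmin. It was 40.8 for Nop10 (a small box H/ACA protein), 40.1 for Ncl (nucleolin) and 24.7 for Nop56 (a core box C/D protein). At the low end were Heatr1, a factor of early small subunit assembly, at 2.55 and Rrp1b, a nucleolar protein of large subunit assembly, at 2.39. The median member had 8.93 RPKM in sham hearts. Partners within 1 particle were not at 1 level per length: of the box H/ACA proteins, Nop10 had 40.8 RPKM, Nhp2 22.7, Dkc1 12.03 and Gar1 6.50.

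**Figure D1:**
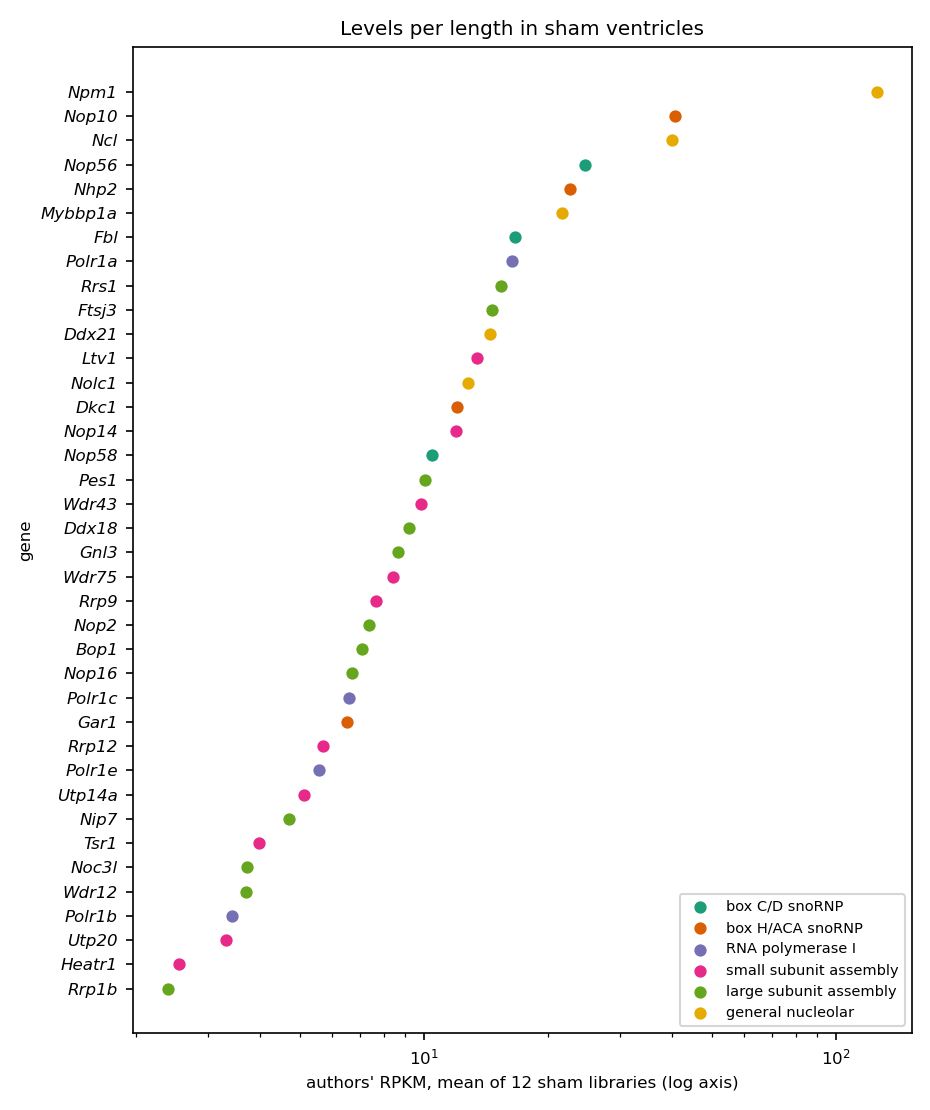
Mean of the authors' RPKM over 12 sham libraries for each of the 38 genes, on a log axis, coloured by role. Npm1 stands at 126 RPKM and Rrp1b at 2.39, with the roles mixed along the range.

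The spread between libraries set what could be seen. The pooled SD of log2(CPM + 1) within groups was 0.081 for Wdr43 (a small subunit factor), the lowest, and 0.27 for Rrp12, the highest, with a median of 0.16. With 3 libraries a group, the 95% interval of limma voom for TAC over sham stayed within a change of 2-fold in either direction for 37, 37, 38 and 37 of the 38 members at days 2, 4, 7 and 21. Rrp12 was the member outside it at days 2, 4 and 21. It stayed within 1.5-fold for 25, 29, 32 and 34 members.

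Few members passed the test at any day, and the changes were small. At day 2, 3 members were higher after TAC (Ftsj3, Npm1 and Polr1e) and none was lower. These 3 calls depended on single libraries, as did the count of all genes called. Without replicate 1 of TAC 14 members were higher, beside 8.87% of all genes, and without replicate 2 of TAC 1 was, beside 2.17%. There were 0 without replicate 3 of TAC, beside 0.0644% of all genes, and 0 without replicate 1, 2 or 3 of sham, beside 0.658%, 0.0572% and 0.508%. At day 4, Rrp12 was higher and Polr1a and Polr1b were lower. At day 7, Polr1a and Dkc1 were lower and none was higher. Polr1a at day 7 passed under all 17 alternatives run, and Dkc1 under 8 of them. No member passed at day 21, and no log2 fold change of any member at any day exceeded 1 in size. A member is said to pass when its Benjamini-Hochberg adjusted p, over all 13816 genes and from edgeR's quasi-likelihood test (two-sided), was under 0.05.

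Read against all genes tested, the 3 higher members of day 2 (7.89% of 38) stood beside 3.73% of all genes higher and 0.854% lower at that day. At day 4 the background was 14.4% higher and 10.1% lower, against 1 and 2 of the 38 members. At day 7 it was 13.1% higher and 10.0% lower, against none and 2 members. At day 21 it was 0.622% higher and 0.470% lower, against none and none.

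The counts of 0 came from edgeR. At unadjusted p under 0.05, 18 of the 38 members were higher and none lower at day 2, beside 12.4% and 7.58% of all genes. At day 4 there were 1 higher and 2 lower, beside 20.2% and 17.6%, and at day 7 also 1 and 2, beside 20.1% and 17.1%. At day 21 there were 2 higher and 2 lower, beside 9.25% and 8.12%. DESeq2 and limma voom also gave 0 members lower at day 2, 0 higher at day 7 and 0 in either direction at day 21.

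The direction of the small values was less even than the calls. At day 2, 35 of the 38 members had a positive log2 fold change, with a median of 0.23, where the median of all genes tested was -0.0023 and 49.6% of all genes were positive. At day 4, 25 members were positive with a median of 0.083, at day 7, 20 with a median of 0.034, and at day 21, 25 with a median of 0.098. The median of all genes was -0.011, 0.0032 and 0.0099 at those days. Leaving out 1 library of the day moved the median of the members between 0.13 and 0.32 at day 2 (30 to 36 positive), between 0.011 and 0.13 at day 4 (20 to 29 positive), between -0.031 and 0.067 at day 7 (17 to 26 positive) and between 0.031 and 0.091 at day 21 (20 to 26 positive). The lowest of these came without replicate 3 of TAC at each of the 4 days, and at day 7 the median was also below 0, at -0.0027, without replicate 2 of sham. Without the libraries with over 30 CPM of Myl7 the medians were 0.22 at day 2 (35 positive), 0.066 at day 7 (26 positive) and 0.064 at day 21 (23 positive). That of day 2 set the TAC libraries against replicate 1 of sham alone. By role, the medians of day 2 were 0.34 for the 3 box C/D proteins, 0.30 for the 4 box H/ACA proteins, 0.093 for the 4 polymerase subunits, 0.16 for the 10 small subunit factors, 0.27 for the 12 large subunit factors and 0.25 for the 5 general nucleolar proteins. The highest of a member's 4 values was that of day 2 in 31 of the 38, and 36 members had a lower value at day 7 than at day 2. Every member shares the same libraries of day 2, so these counts are not of independent cases. The shares among all genes were not worked out, and no member passed a test between days (below). Only 2 members were below 0 at all 4 days, Polr1a and Rrp9, and 15 were above 0 at all 4.

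**Figure D2:**
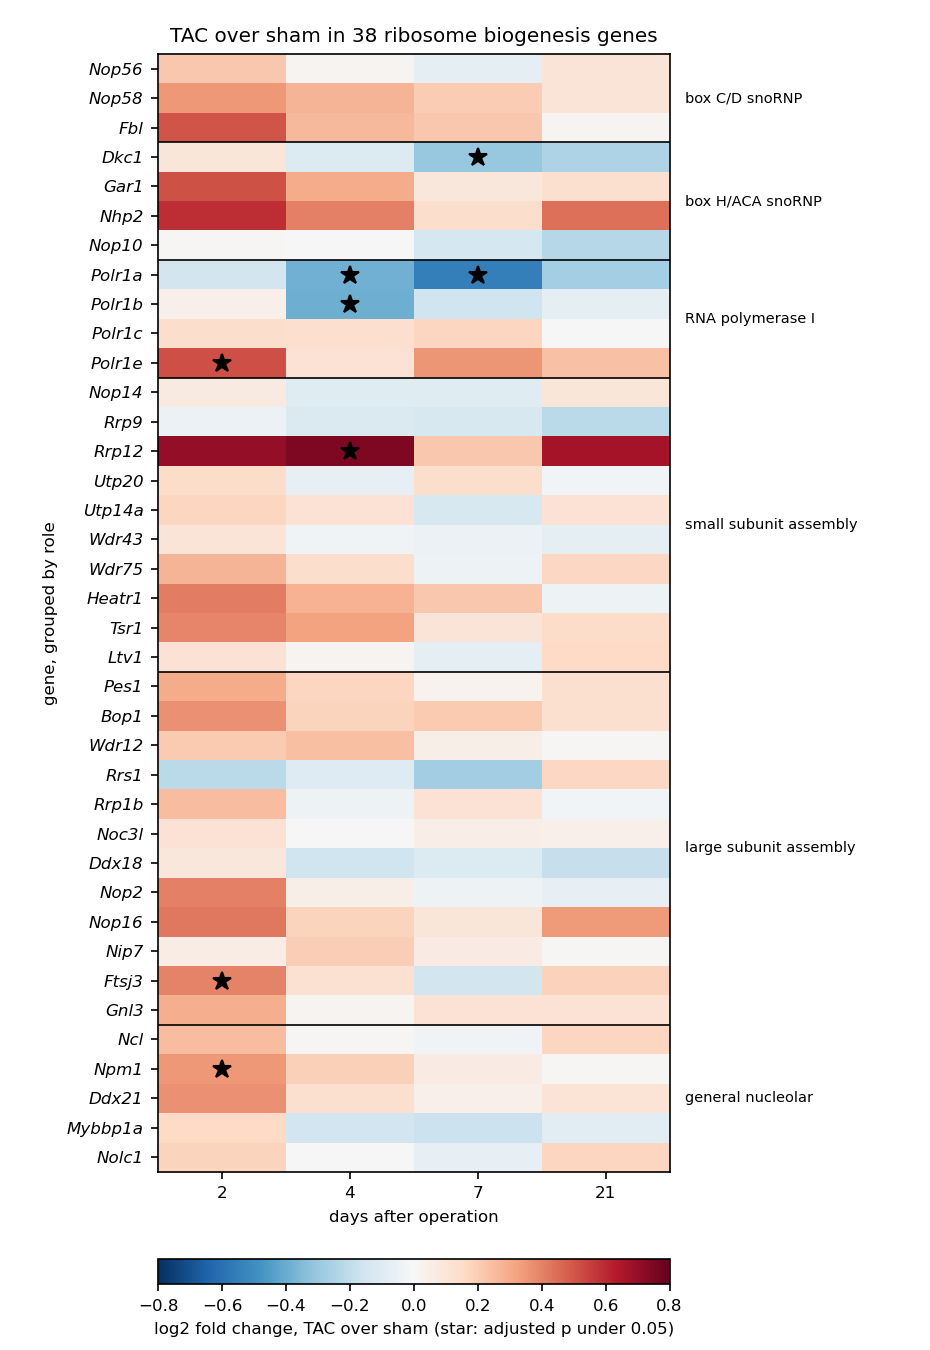
log2 fold change of TAC over sham for 38 genes (rows, by role) at 4 days (columns), red higher and blue lower after TAC, with a star where the adjusted p was under 0.05. The day 2 column is red in 35 of 38 rows, and Polr1a is blue at every day.

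Whether the effect of TAC differed between days was tested directly. No member passed in the test over all 4 days at once (edgeR, lowest adjusted p 0.272, for Ftsj3), where 0.369% of all genes did. At unadjusted p under 0.05 there were 2 members, Ftsj3 and Dkc1, beside 1794 of all 13816 genes, and DESeq2 and limma voom also gave 0. Of the single differences, the signed difference of day 4 minus day 2 was below 0 for 34 of 38 members. Its median was -0.18 on the log2 scale, beside -0.0087 for all genes tested. The 34 hold members whose log2 fold change came closer to 0 and members, such as Polr1a, whose log2 fold change lay further below 0. All share the same libraries, so they are not independent cases. The difference of day 21 minus day 2 was below 0 for 35 of 38, with a median of -0.17, beside -0.0070 for all genes. The median of day 21 minus day 7 was 0.040, beside -0.0056. No member passed in any of the 4 single differences, with a lowest adjusted p of 0.416 in edgeR, where 0% of all genes passed for day 4 minus day 2, 0.0507% for day 7 minus day 4, 0.0651% for day 21 minus day 7 and 0.0145% for day 21 minus day 2. At unadjusted p under 0.05 there were 2 members for day 4 minus day 2, beside 8.79% of all genes, and none for day 7 minus day 4, beside 7.61%. There was 1 for day 21 minus day 7, beside 11.4%, and there were 4 for day 21 minus day 2, beside 8.27%. In sham hearts no member differed between the days (lowest adjusted p 0.687 in edgeR), where 0.680% of all genes did. None did at unadjusted p under 0.05 either, where 9.42% of all genes did.

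The values of day 2 rested unevenly on its TAC libraries. Taking each library's median over the 38 members, as log2(CPM + 1) minus the sham mean of the day, replicate 3 of TAC lay at 0.41, replicate 2 at 0.21 and replicate 1 at 0.012. The 3 sham libraries lay between -0.053 and 0.035. Replicate 1 of TAC thus sat among the sham libraries, and the others sat above them. At day 4 the TAC libraries lay at -0.060, 0.020 and 0.23, at day 7 at -0.12, 0.054 and 0.075, and at day 21 at 0.018, 0.031 and 0.093. The sham libraries of those days lay between -0.031 and 0.050, so that the libraries standing farthest from them were replicate 3 of TAC at day 4, above, and replicate 1 of TAC at day 7, below.

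Several cell type lists also separated the 3 TAC libraries of day 2: proliferation, macrophage, lymphocyte and neutrophil markers were lowest in replicate 1 and highest in replicate 3, and cardiomyocyte and endothelial markers were highest in replicate 1 and lowest in replicate 3. The 16 proliferation markers summed to 114, 209 and 355 CPM in replicates 1, 2 and 3 of TAC, against 71.4 to 87.9 CPM in sham libraries, and 12 of the 16 were higher. The 12 macrophage markers summed to 331, 492 and 642 CPM in the TAC libraries, against 248 to 345 CPM in sham libraries, and 6 of the 12 were higher. Fibroblast markers summed to 1757, 3202 and 2921 CPM after TAC, against 1644 to 1950 CPM in sham libraries, with none of 12 past the test. At unadjusted p under 0.05 in edgeR 6 were higher and 0 lower, and their median log2 fold change was 0.57. Cardiomyocyte markers summed to 106992, 84121 and 79339 CPM after TAC, against 102718 to 110594 CPM in sham libraries, with none of 12 past the test. Of these, 0 were higher and 2 lower at unadjusted p under 0.05 in edgeR, with a median of -0.16. Endothelial markers summed to 1480, 1408 and 1336 CPM after TAC, against 1642 to 1727 CPM in sham libraries, and 3 of the 10 were lower. The few counts of lymphocyte markers summed to 13.8, 23.0 and 38.3 CPM after TAC, against 16.3 to 17.4 CPM in sham libraries, and those of neutrophil markers to 6.52, 15.3 and 26.2 CPM, against 5.74 to 10.3 CPM, with none of 5 and none of 4 tested past the test (none and 2 higher at unadjusted p under 0.05 in edgeR). In the proliferation, macrophage, fibroblast, cardiomyocyte, endothelial and lymphocyte lists no marker was at 0 in all libraries, and in the neutrophil list 1 was. The 5 hypertrophy markers, not a cell type list, also separated these libraries. They summed to 5086, 10710 and 11235 CPM in replicates 1, 2 and 3 of TAC, against 1410 to 2206 CPM in sham libraries. The part of all these lists in the values of the members was not tested.

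**Figure D3:**
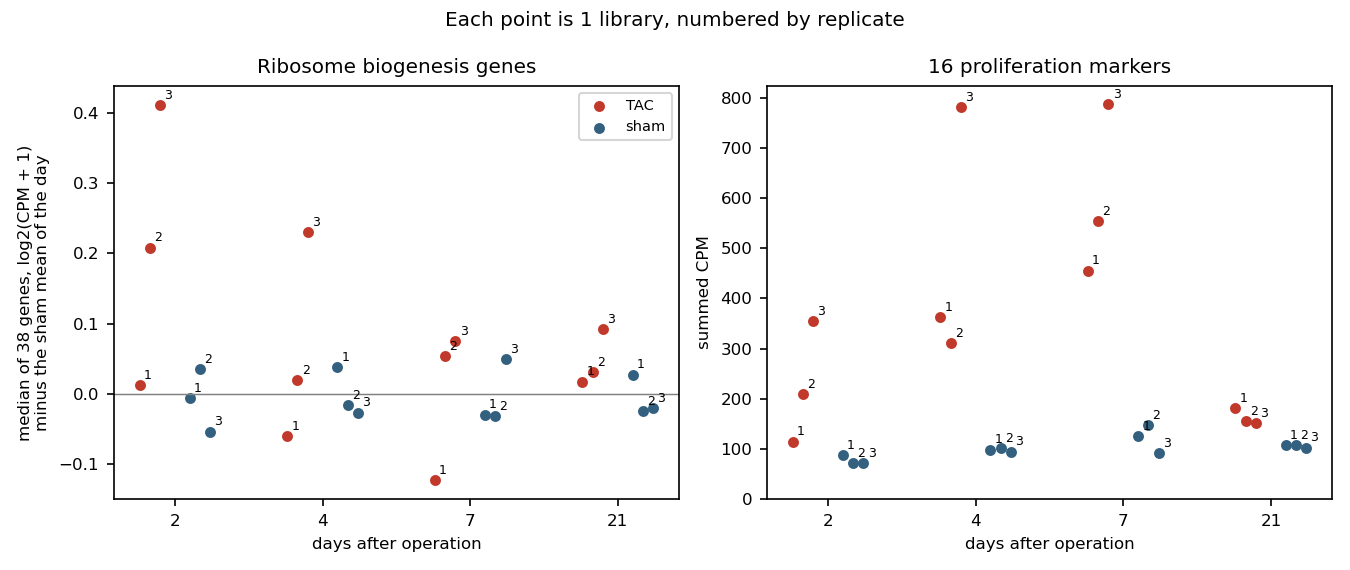
Left, median over 38 genes of log2(CPM + 1) minus the sham mean of the day, 1 point per library; right, summed CPM of 16 proliferation markers in the same libraries. At day 2 the TAC libraries lie at 0.012, 0.21 and 0.41 on the left and at 114, 209 and 355 CPM on the right.

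RNA polymerase I, the enzyme that transcribes the ribosomal RNA precursor, held both the lowest and some of the highest values. Polr1a encodes its largest subunit, part of the catalytic core. At day 7 it had 59.9, 78.8 and 60.8 CPM in TAC hearts, against 98.6, 96.1 and 96.9 CPM in sham hearts. All 3 TAC libraries were below all 3 sham libraries. The mean was 66.5 ± 11 CPM after TAC and 97.2 ± 1.3 CPM after sham (SD, n = 3 each), and the gene fell by 0.55 ± 0.11 on the log2 scale (SE), with an adjusted p of 0.00181 in edgeR.

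Polr1a was lower at day 4 as well. It had 70.2, 82.2 and 67.4 CPM in TAC hearts, against 105, 90.9 and 91.6 CPM in sham hearts, with no overlap, and fell by 0.39 ± 0.11 on the log2 scale (adjusted p 0.0138 in edgeR). At day 21 the TAC libraries, at 77.7, 89.3 and 68.2 CPM, also lay below the sham libraries, at 94.8, 92.2 and 96.8 CPM, but the value did not pass (log2 fold change -0.27 ± 0.11, adjusted p 0.198 in edgeR). At day 2 it had 94.8, 86.9 and 88.1 CPM after TAC, against 103, 106 and 90.2 CPM after sham, and the groups overlapped. Over the 4 days the sham libraries ran from 90.2 to 106 CPM. Their SD was 8.5, 7.8, 1.3 and 2.3 CPM at days 2, 4, 7 and 21. In the annotation a non-coding gene on the opposite strand, which has no row in the count table, shares 185 exon bases with Polr1a. Whether reads were counted by strand is not stated, so reads of the 2 cannot be told apart.

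Polr1b encodes the second largest subunit, which forms the catalytic centre with Polr1a. At day 4 it had 9.83, 9.74 and 12.8 CPM in TAC hearts, against 15.1, 13.9 and 13.7 CPM in sham hearts, with no overlap, and fell by 0.39 ± 0.11 on the log2 scale (adjusted p 0.0165 in edgeR). At day 7 its groups overlapped, at 11.9, 12.3 and 10.2 CPM after TAC and 11.9, 12.7 and 13.8 CPM after sham, and it did not pass (adjusted p 0.318 in edgeR).

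Polr1e encodes a subunit outside that core which takes part in initiation. At day 2 it had 29.04, 22.4 and 26.8 CPM in TAC hearts, against 20.3, 15.5 and 18.9 CPM in sham hearts. Every TAC library was above every sham library. The gene rose by 0.51 ± 0.14 on the log2 scale, or 1.43-fold (adjusted p 0.0449 in edgeR). Its log2 fold change was 0.12, 0.35 and 0.24 at days 4, 7 and 21, none of which passed. Polr1c, a subunit shared with RNA polymerase III, had values between -0.0015 and 0.17 over the days, and did not pass at any.

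Polr1a and Polr1b thus had values below 0 and Polr1e values above 0 at days 4, 7 and 21. Of these, only Polr1a at days 4 and 7 and Polr1b at day 4 passed. Whether the genes differed from each other was not tested. Among 15 further genes of the RNA polymerase I system that were tested (other subunits, some shared with other polymerases, and initiation factors), none was higher at any day, and none passed at days 2 and 21. At day 4, 3 were lower: Polr2k and Polr2e, which are shared subunits, and Taf1b, a subunit of the promoter selectivity factor. That was 20% of the 15, beside 10.1% of all genes lower. Polr2k fell by 0.51 ± 0.13 on the log2 scale (adjusted p 0.0092 in edgeR), with 8.47, 8.76 and 8.72 CPM in TAC hearts, against 11.9, 13.6 and 11.6 CPM in sham hearts. At day 7, 2 were lower, the shared subunits Polr2f and Polr2k. That was 13.3% of the 15, beside 10.0% of all genes lower. The medians of the 15 were 0.020, -0.073, -0.12 and 0.051 at days 2, 4, 7 and 21. Ubtf, which binds the ribosomal DNA and opens it for transcription, and Rrn3, the initiation factor that recruits the polymerase, did not pass at any day.

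At days 4 and 7 the cell type markers also moved. Of 12 cardiomyocyte markers 5 were lower at each of these days, and at day 7 they summed to 60236, 99845 and 81919 CPM in replicates 1, 2 and 3 of TAC, against 108881 to 112520 CPM in sham libraries. The 3 TAC libraries of Polr1a stood in the same order at day 7. They also did at day 4, where cardiomyocyte markers summed to 85624, 96708 and 73043 CPM in replicates 1, 2 and 3 of TAC. At day 21 the order was again shared, at 92936, 114849 and 82066 CPM. At day 2 replicate 1 was highest in both, while replicates 2 and 3 stood in opposite order. Polr1b at day 4 and Dkc1 at day 7 were instead highest in replicate 3 of TAC. Fibroblast markers were higher for 8 of 12 at day 4 and 9 of 12 at day 7, macrophage markers for 12 and 11 of 12, and proliferation markers for 15 and 16 of 16. Endothelial markers summed to 1360, 1546 and 1519 CPM after TAC at day 4, against 1559 to 1692 CPM in sham libraries, and 3 of 10 were lower. At day 7 they summed to 1611, 1822 and 1943 CPM after TAC, against 1523 to 1594 CPM in sham libraries, with 3 higher and 1 lower. Of 5 lymphocyte markers tested, 1 was higher at each of these days. The 7 atrial markers summed to 1006, 551 and 546 CPM in replicates 1, 2 and 3 of TAC at day 7, against 412 to 426 CPM in sham libraries, and 1 of the 6 tested was higher. The part of these lists in the lower values of Polr1a, Polr1b and Dkc1 was not tested.

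The box C/D proteins carry out ribose methylation. Fbl, the methyltransferase fibrillarin, had 12.2, 15.8 and 22.6 CPM in TAC hearts at day 2, against 12.8, 11.5 and 11.5 CPM in sham hearts. The groups overlapped through replicate 1 of TAC, and the log2 fold change of 0.51 ± 0.16 did not pass (adjusted p 0.0813 in edgeR). At day 4 its TAC libraries, at 13.8, 14.3 and 16.1 CPM, all lay above the sham libraries, at 11.8, 12.8 and 12.4 CPM, again without passing (adjusted p 0.263 in edgeR). Nop58, one of its core partners, had a log2 fold change of 0.34 at day 2 and of 0.10 at day 21. Nop56, the other, had 39.3, 42.3 and 57.9 CPM after TAC at day 2, against 40.1, 40.3 and 40.1 CPM after sham, so that replicates 2 and 3 stood above the sham libraries and replicate 1 below them.

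The box H/ACA proteins form the pseudouridine synthase particle and also bind telomerase RNA. Dkc1, the catalytic subunit dyskerin, was lower at day 7, at 23.1, 26.8 and 28.0 CPM in TAC hearts, against 29.3, 35.3 and 31.6 CPM in sham hearts. There was no overlap, and it fell by 0.30 ± 0.099 on the log2 scale (adjusted p 0.0315 in edgeR). At day 21 the groups did not overlap either, at 25.4, 29.1 and 25.9 CPM after TAC and 31.9, 29.8 and 33.7 CPM after sham, but the log2 fold change of -0.25 did not pass (adjusted p 0.198 in edgeR). Dkc1 shares 45 exon bases with Mpp1 on the opposite strand in the annotation.

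Nhp2, a small RNA-binding partner of Dkc1, had positive values at all 4 days. At day 4 it had 19.0, 23.99 and 26.6 CPM in TAC hearts, against 16.5, 17.7 and 18.5 CPM in sham hearts, and at day 21 it had 21.4, 24.2 and 22.7 CPM, against 17.8, 14.8 and 17.6 CPM. Neither pair of groups overlapped, and neither value passed (log2 fold changes 0.40 and 0.44, adjusted p 0.139 and 0.258 in edgeR). At day 2 its value was 0.59 ± 0.19 (adjusted p 0.0877 in edgeR), with 39.5 CPM in replicate 3 of TAC and 19.9 CPM in replicate 1. Nhp2 shares 42 exon bases with Rmnd5b on the opposite strand. Gar1 had its highest value at day 2, 0.51, and Nop10 was at 0.010 at day 2 and -0.23 at day 21. Of 9 other snoRNP genes tested, none passed at any day, with medians of 0.18, -0.084, -0.12 and -0.11 at days 2, 4, 7 and 21. None of the 9 had an unadjusted p under 0.05 at any day in edgeR.

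Small subunit assembly was represented by 10 members, of which Rrp12 alone passed. Rrp12 is known from yeast as a factor of late small subunit assembly and export. At day 4 it had 23.5, 34.8 and 36.5 CPM in TAC hearts, against 23.8, 14.7 and 18.1 CPM in sham hearts, so the groups overlapped by 1 library on each side. It rose by 0.75 ± 0.21 on the log2 scale, or 1.68-fold (adjusted p 0.0141 in edgeR). At day 2 the log2 fold change was 0.70 ± 0.21, with 22.7, 34.3 and 43.8 CPM after TAC and 23.97, 19.4 and 18.8 CPM after sham (adjusted p 0.0543 in edgeR). At day 21 it was 0.66 ± 0.21, with 30.6, 33.2 and 40.3 CPM after TAC, all above the 21.8, 22.3 and 21.6 CPM after sham (adjusted p 0.113 in edgeR). At day 7 it was 0.22. Rrp12 thus had the largest value of the 38 members at days 2, 4 and 21.

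The other 9 small subunit members did not pass at any day. At day 2 their log2 fold changes ran between -0.049 for Rrp9, a protein of the U3 particle, and 0.41 for Heatr1. Wdr75, a factor of the early precursor, was above sham in every TAC library of day 2, at 25.7, 29.5 and 30.4 CPM, against 23.4, 24.9 and 22.7 CPM (log2 fold change 0.27, adjusted p 0.184 in edgeR). The least variable member, Wdr43, stayed between -0.081 and 0.10 over the 4 days. Tsr1, a late factor, had 0.39 at day 2 and 0.32 at day 4. It shares 1159 exon bases with Srr on the opposite strand, so its counts may hold reads of Srr. Rrp9 was below 0 at all 4 days, between -0.049 and -0.21, with overlapping groups throughout.

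Among 45 other small subunit assembly genes tested, 41 were positive at day 2, with a median of 0.11 and none past the test in either direction. Nom1 was lower at day 4 and Nom1, Imp3 and Fcf1 were lower at day 7. These were 2.22% and 6.67% of the 45, beside 10.1% and 10.0% of all genes lower at days 4 and 7. Fcf1, which acts in cutting the precursor in yeast, had 9.83, 9.62 and 10.8 CPM in TAC hearts at day 7, against 13.2, 11.8 and 14.9 CPM in sham hearts, and fell by 0.40 ± 0.14 on the log2 scale (adjusted p 0.0429 in edgeR). None of the 45 was higher at any day, and none passed at day 21.

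Large subunit assembly was represented by 12 members, of which Ftsj3 alone passed. Ftsj3 is a methyltransferase-like protein of precursor RNA processing. At day 2 it had 41.9, 45.1 and 53.0 CPM in TAC hearts, against 34.6, 34.4 and 37.4 CPM in sham hearts. The groups did not overlap, and it rose by 0.40 ± 0.11 on the log2 scale, or 1.32-fold (adjusted p 0.0344 in edgeR). At days 4, 7 and 21 it was at 0.12, -0.15 and 0.19.

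Pes1, Bop1 and Wdr12 form 1 complex, which is needed for processing of the large subunit RNA. At day 2 Pes1 had 31.0, 32.0 and 33.9 CPM in TAC hearts, against 27.8, 27.8 and 23.3 CPM in sham hearts, with no overlap, and did not pass (log2 fold change 0.30 ± 0.10, adjusted p 0.110 in edgeR). Pes1 shares 138 exon bases with 4930556J24Rik on the opposite strand, which has no row in the counts. Bop1 and Wdr12, the partners of Pes1, had 0.37 and 0.21 at day 2, with overlapping groups. Bop1 shares 50 exon bases with Mroh1 on the opposite strand. Pes1, Bop1 and Wdr12 were all positive at all 4 days. Rrs1, which in yeast helps to bring a small ribosomal RNA into the large subunit, had the lowest mean of the role, with -0.21, -0.10, -0.28 and 0.17 at days 2, 4, 7 and 21 and overlapping groups. Nop16 had the highest, with 0.42 at day 2 and 0.34 at day 21. At day 21 its TAC libraries had 10.4, 12.3 and 12.4 CPM, against 10.3, 8.27 and 9.10 CPM in sham libraries, the lowest TAC value lying just above the highest sham value.

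The other members of the role were Ddx18, an RNA helicase, Nop2, an RNA methyltransferase, Gnl3 (nucleostemin, a GTP-binding protein), Nip7, Noc3l and Rrp1b. At day 2 they ran between 0.059 for Nip7 and 0.40 for Nop2. Among 49 other tested genes listed here under large subunit assembly, 34 were positive at day 2 with a median of 0.097 and none past the test. The placing of a gene in this list, as of Nol7, is not a result of these data. Gltscr2 and Pwp1 were lower at day 4, or 4.08% of the 49, beside 10.1% of all genes. At day 7 Nol7, Las1l and Gnl2 were lower and Senp3, which removes SUMO from nucleolar proteins, was higher. These were 6.12% lower and 2.04% higher, beside 10.0% and 13.1% of all genes. Nol7 had 71.4, 112 and 96.7 CPM in TAC hearts at day 7, against 128, 144 and 122 CPM in sham hearts (log2 fold change -0.49 ± 0.12, adjusted p 0.0070 in edgeR). Of 15 genes of the exosome, which trims precursor RNA, Exosc10 was lower at day 4 and Exosc4 at day 7, and none was higher. Each was 6.67% of the 15, beside 10.1% and 10.0% of all genes lower at these days.

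The general nucleolar proteins include the most abundant members. Npm1 had 192, 204 and 259 CPM in TAC hearts at day 2, against 177, 163 and 174 CPM in sham hearts. The groups did not overlap, and it rose by 0.35 ± 0.098 on the log2 scale, or 1.27-fold (adjusted p 0.0445 in edgeR). Its value was 0.19, 0.067 and 0.0072 at days 4, 7 and 21. Processed pseudogenes of Npm1 are nearly identical to it, and how reads shared between copies were counted is not stated, so its level is uncertain.

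Ncl, which binds precursor RNA, had 406, 450 and 494 CPM after TAC at day 2, against 390, 384 and 364 CPM after sham, without overlap and without passing (log2 fold change 0.25, adjusted p 0.132 in edgeR). Ddx21, a helicase that couples RNA polymerase activity to processing, had 68.7, 83.7 and 112 CPM in TAC hearts at day 2, against 68.0, 70.2 and 67.1 CPM in sham hearts. Its lowest TAC library lay within the sham range. Mybbp1a, a nucleolar Myb-binding protein, was at 0.16 at day 2 and at -0.16, -0.17 and -0.084 at days 4, 7 and 21, and at day 4 every TAC library, at 68.9, 75.6 and 80.6 CPM, lay below the sham libraries, at 85.1, 81.6 and 84.1 CPM (adjusted p 0.267 in edgeR). Mybbp1a shares 131 exon bases with Spns2 on the opposite strand. Nolc1, a chaperone of snoRNPs, had 0.18 at day 2.

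**Figure D4:**
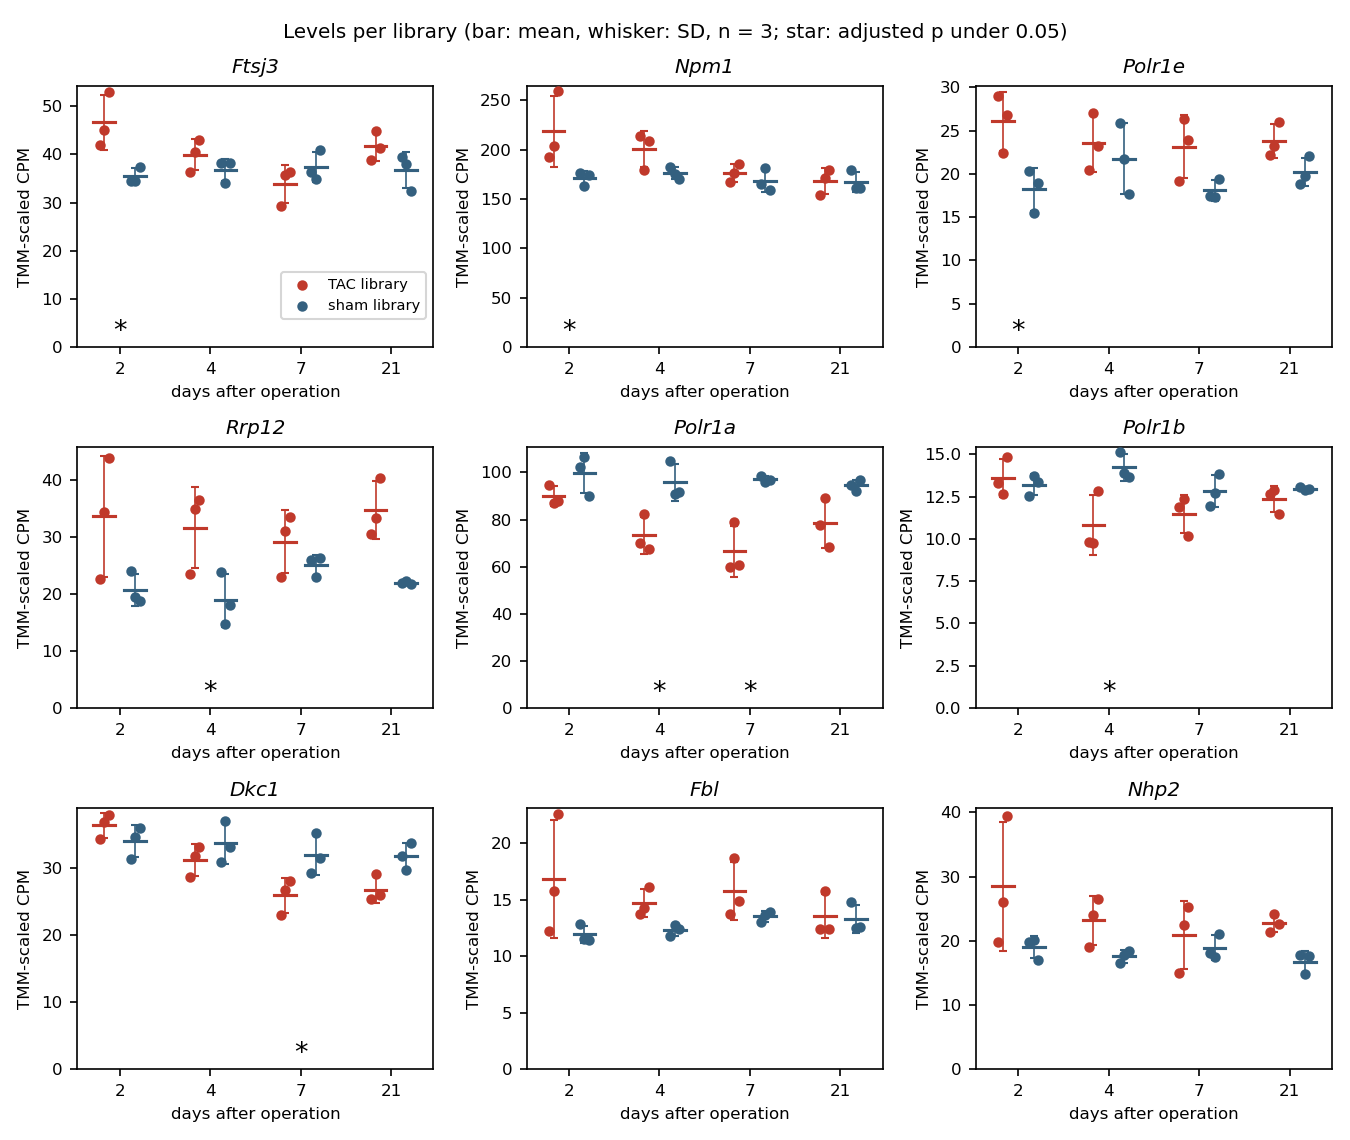
TMM-scaled CPM of 9 genes in each library by day, TAC in red to the left of sham in blue, with the mean and SD of 3 libraries and a star where the adjusted p was under 0.05. At day 7 the TAC libraries of Polr1a lie at 59.9 to 78.8 CPM, below all sham libraries, and at day 2 the TAC libraries of Fbl and Nhp2 spread widely.

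Counting only whether libraries overlapped, 7 members had every TAC library above every sham library at day 2 and none below, where 11.2% of all genes were above and 11.2% below. They were Gar1, Polr1e, Wdr75, Pes1, Ftsj3, Ncl and Npm1. At day 4 there were 5 above (Fbl, Nhp2, Tsr1, Pes1 and Nop16) and 3 below (Polr1a, Polr1b and Mybbp1a), against 21.5% and 19.6% of all genes. At day 7 there were 1 above (Bop1) and 2 below (Polr1a and Dkc1), against 20.5% and 19.4%. At day 21 there were 8 above and 4 below, against 11.9% and 10.5%. Those above at day 21 were Nop58, Nhp2, Polr1e, Rrp12, Ltv1, Pes1, Nop16 and Nolc1, and the 4 below were Polr1a, Dkc1, Ddx18 and Wdr43.

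The ribosomal proteins are assembled with ribosomal RNA into the 2 subunits by the factors above and were taken as a neighbouring list. Of 76 cytosolic ribosomal protein genes tested, 33 (43.4%) were higher at day 2, beside 3.73% of all genes. This count too depended on single libraries and on the fit. Without replicate 3 of TAC only 9 of all genes were higher at day 2, and without replicate 2 of sham 8. With the libraries of the day alone there were 0. The counts of this list in those runs are not given here. At day 4, 12 of the 76 (15.8%) were higher, beside 14.4% of all genes. At day 7, 8 (10.5%) were, beside 13.1%, so both shares were near those of all genes. The signs were less even: 68 and 57 of the 76 were positive at days 4 and 7, beside 48.7% and 50.4% of all genes. None was higher at day 21 (2 at unadjusted p under 0.05 in edgeR), and none was lower at any day. Of all genes, 0.854%, 10.1%, 10.0% and 0.470% were lower at days 2, 4, 7 and 21. Their medians were 0.34, 0.17, 0.087 and 0.048. The order of their medians over the days was that of the members at days 2, 4 and 7, while the members' median at day 21, 0.098, lay above that of day 7. Many ribosomal protein genes have near-identical pseudogenes, so single values are uncertain and are not given. Ribosomal RNA itself was not analysed here.

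**Figure D5:**
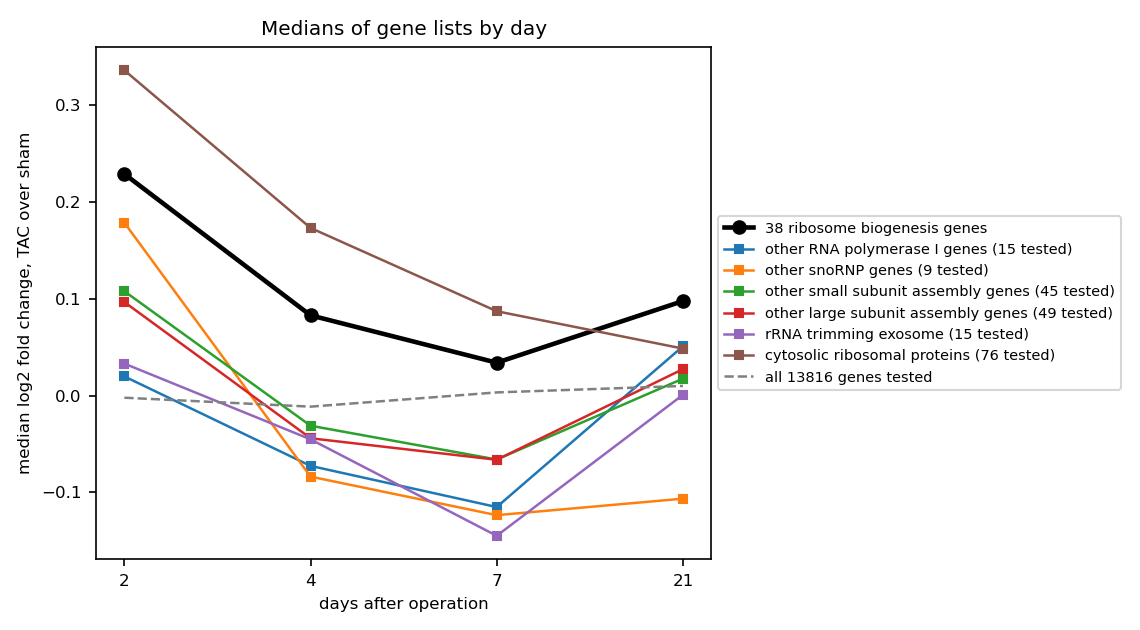
Median log2 fold change of TAC over sham by day for the 38 genes (black), 6 neighbouring lists and all 13816 genes tested (dashed); the days are evenly spaced. At day 2 the members lie at 0.23 and the ribosomal proteins at 0.34, and at day 7 the members lie at 0.034 while 5 of the 6 other lists are below 0.

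Myc RNA was higher after TAC at days 2 and 4. At day 2 it had 6.52, 12.3 and 26.7 CPM in replicates 1, 2 and 3 of TAC, against 5.99, 4.72 and 5.66 CPM in sham hearts. No TAC library overlapped the sham libraries, and replicate 1 lay closest to them. The log2 fold change was 1.49 ± 0.34 (adjusted p 0.0188 in edgeR). With the libraries of the day alone 0 of all genes were higher at day 2, so Myc did not pass there. Without replicate 3 of TAC 9 of all genes were higher, and without replicate 2 of sham 8. Whether Myc was among them is not given here. At day 4 it had 14.3, 9.60 and 18.8 CPM after TAC, against 4.92, 5.04 and 7.63 CPM after sham (1.28 ± 0.35, adjusted p 0.0112 in edgeR). At days 7 and 21 it did not pass, at 0.81 and 0.39. Of 11 tested genes of the Myc network, the one other gene that was higher at day 2 was Mxd3, a repressor partner of Max with very low counts.

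The 7 members with an E-box in the promoter window had log2 fold changes at day 2 of 0.30 (Pes1), 0.39 (Tsr1), 0.10 (Wdr43), 0.16 (Mybbp1a), 0.11 (Ltv1), 0.14 (Utp20) and 0.40 (Nop2). None of them passed the test at day 2 or any other day. The median of all 38 members at day 2 was 0.23. Any link of these values to the E-box or to Myc was not tested. Of the 3 members that passed at day 2, Ftsj3 and Polr1e did not hold these letters in their windows, and the window of Npm1 was not analysed here.

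The calls of day 2 depended on single libraries and on the fit. The 14 members higher without replicate 1 of TAC included Rrp12, Fbl, Nhp2 and Ddx21. Leaving out the libraries with over 30 CPM of Myl7 kept only replicate 1 of sham at day 2, so no count of calls is given for it.

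Of the later calls, Polr1a at day 7 passed under each of the 17 alternatives run, with log2 fold changes between -0.68 and -0.48 and an adjusted p of at most 0.0269. At day 4 Polr1a passed in 14 of 17 alternatives, Rrp12 in 14 and Polr1b in 13. Leaving out replicate 2 or 3 of sham or replicate 3 of TAC at day 4 left no member higher, and leaving out replicate 1 of sham or replicate 1 of TAC left none lower. Without replicate 2 or 3 of TAC at day 4, 1 was lower. Over the runs that each left out 1 library of day 4, 1060 to 2243 of all genes were higher and 342 to 1667 lower, the lowest counts (7.59% and 2.45%) being those without replicate 3 of TAC and the highest those without replicate 2 of TAC. Dkc1 at day 7 passed in 8 of 17, and 1 member was lower at day 7 without replicate 2 or 3 of sham, replicate 1 of TAC or the Myl7 libraries; that one was Polr1a in each case. In those 4 runs 5.94%, 4.33%, 2.75% and 1.59% of all genes were lower.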

How the data were processed

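Per the labels' protocols, libraries were made from total RNA of the left ventricle with a NuGEN Ovation kit and sequenced on an Illumina NextSeq500. The deposited files are 2 tables by gene symbol, one of raw counts (whole numbers, not normalized) and one of the authors' RPKM; the submitters' processing notes name TopHat, DESeq and the build hg19 without roles or versions. hg19 is a human build; the mouse build, annotation and counter used for these libraries were not given in the sources used here. No column of another series was present.

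Counts were scaled by TMM and tested with edgeR 4.0.16 (R 4.3.3): filterByExpr, 8 group means, quasi-likelihood F tests, Benjamini-Hochberg adjustment over 13816 genes, threshold 0.05. The standard error is the size of the log2 fold change divided by the root of F. CPM are TMM-scaled. RPKM is used for levels between genes and, as log2(RPKM + 1) and log2(RPKM + 0.1) for genes with a mean of at least 0.5, in limma 3.58.1. DESeq2 1.42.0, limma voom, other scalings and filters, a fit on each day alone, a replicate block and leaving out each library were the alternatives. Runs without the libraries with over 30 CPM of Myl7 were chosen after seeing the data. The fits were tested on simulated counts.

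The members and all gene lists were chosen with earlier results of these data known. Genes given in full were, by rule, the 4 members with the smallest p of each day, the largest and smallest mean log2 fold change of each role, and members past the test against the direction of most; others named with values were chosen after their values were seen. Overlapping exons were taken from GENCODE M21, which may not be the authors' annotation. Replicate numbers are shared between TAC and sham, but same-numbered libraries did not deviate together (correlations between -0.15 and 0.14), so they were not treated as pairs. Depth sets counting error only; intervals cover the spread between 3 libraries.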

Additional observations from a re-analysis of the deposited data

How the results depend on the processing

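Of the counts of members past the test, those that were 0 in the fit reported were 0 under each alternative run. They were those lower at day 2, higher at day 7, in both directions at day 21, and differences between days and between sham days. The runs without the Myl7 libraries kept only replicate 1 of sham at day 2. They are not counted here for day 2 or for differences between days. Members higher at day 2, 3 as reported, were 0 with limma voom, with the replicate block and with log2(RPKM + 1). They were also 0 with log2(RPKM + 0.1) and with the libraries of the day alone. Leaving out 1 library gave 0 to 14. Both runs without the Myl7 libraries are left out here, for the same reason. Over all genes, the share higher at day 2 was 3.73% as reported, 1.45% with limma voom, 1.25% with the replicate block, 0.882% and 1.54% with the 2 RPKM scales, and 0% with the libraries of the day alone. With DESeq2, 4 members were higher at day 2, the added one being Rrp12, beside 4.93% of all genes. Members higher at day 4, 1 as reported, were 0 to 1 on leaving out 1 library. Members lower at day 4, 2 as reported, were 1 with the libraries of the day alone and 0 to 2 on leaving out 1. Members lower at day 7, 2 as reported, were 1 with no filter on low counts, with log2(RPKM + 1), with log2(RPKM + 0.1), with the libraries of the day alone and in both runs without the Myl7 libraries, and 1 to 2 on leaving out 1 library. The cause of these differences was not tested, beyond the fewer libraries that some of the fits hold. The replicate block changed no count of members at days 4, 7 and 21. No called value changed sign under any alternative run. Precision is limited by the 3 libraries a group: the 95% interval of limma voom stayed within 1.5-fold for 25 of the 38 members at day 2 and for 34 at day 21.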
